A study of Mus musculus with 1814 samples.

Results

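The 54 genes described here encode the machinery of mitosis: the kinases that start it, the kinetochore that ties chromosomes to the spindle, the spindle itself, the checkpoint that times chromosome separation, cytokinesis, and the condensins and other proteins that shape chromosomes. They were taken from a fixed list of names, and each of the 54 was found in both deposited tables of single germinal center cells, which hold 25125 genes (experiments 1, 3 and 4) and 15177 genes (experiment 5). None of the 54 was at 0 in any of these experiments. The samples are single cells of mouse germinal centers, sorted by antibody staining into 96-well plates and read by SmartSeq2, a method that copies full-length mRNA of each cell. At 12 h, experiment 1 gave light zone cells of 2 kinds, 80 of them labelled Dec- and the rest Dec+. It also gave 42 Dec+ dark zone cells, which the labels place at 30 h and the deposited annotation at 36 h. Experiments 3 and 4 held Dec+ cells of both zones at 12, 30, 46 and 60 h. Experiment 3 had 353 cells, 6 of them with no zone identified. Experiment 5 held Dec+ cells of both zones and 3 genotypes with no time given: 82 dark and 41 light zone cells labelled WT, 62 and 61 labelled KO, and 22 light zone cells labelled TA beside a larger number from the dark zone (23 called G1, 46 S and 32 G2M). The labels do not say what Dec, KO and TA stand for, what time 0 was, or the strain, age and number of the animals. All of these cells came from germinal centers, and the study's title names cyclin D3.

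When a cell enters mitosis, kinases such as Aurora and Polo-like kinases build and drive the spindle, condensins compact the chromosomes, and microtubules attach to kinetochores built on centromeres that carry the histone variant CENP-A. The spindle assembly checkpoint holds anaphase until every chromosome is attached, after which cohesin is cut and the cell divides. Most of these genes are transcribed from late S phase to mitosis, under complexes that read promoter elements called the CHR (cell cycle genes homology region) and the CCAAT box. Germinal center B cells divide mostly in the dark zone, after selection in the light zone.

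Promoter sequence was compared first, since those elements are part of how this group is known to be transcribed. Of the 54 genes, 46 had a promoter entry in RefSeq (build GRCm38.p6, 250 bases before to 50 bases after the start of a transcript), with 52 promoters among them. The CHR, searched as TTTGAA on both strands, was found in 30 of the 46 genes (65.2%), against 20.2% of all genes with an entry. Its variant TTCGAA was in 4 (8.7%, against 1.8%), and 32 of 46 (69.6%) held either form, against 21.7%. The CCAAT box, searched as CCAAT on both strands, was in 34 of 46 (73.9%), against 41.1%. A set of 6 promoters is shown because the results below turn on these genes: Cenpa and Cenpe were the members higher in the dark zone, Cenpf and Plk1 had the steepest difference between G2M and S cells, and Cenph and Mad2l1 were among those with the flattest or opposite one. Sequences run 5′ to 3′ along the gene's strand, with matches to either element in capitals (ATTGG and TTCAAA are the same elements on the opposite strand).
Cenpa, chr5:30666636-30666935, plus strand: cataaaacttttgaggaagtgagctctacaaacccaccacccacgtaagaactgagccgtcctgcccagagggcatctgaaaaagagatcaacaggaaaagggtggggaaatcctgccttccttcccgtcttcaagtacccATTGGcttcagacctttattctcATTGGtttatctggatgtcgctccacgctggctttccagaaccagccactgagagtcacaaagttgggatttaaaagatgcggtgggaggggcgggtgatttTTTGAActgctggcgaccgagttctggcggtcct
Cenpe, chr3:135212313-135212612, plus strand: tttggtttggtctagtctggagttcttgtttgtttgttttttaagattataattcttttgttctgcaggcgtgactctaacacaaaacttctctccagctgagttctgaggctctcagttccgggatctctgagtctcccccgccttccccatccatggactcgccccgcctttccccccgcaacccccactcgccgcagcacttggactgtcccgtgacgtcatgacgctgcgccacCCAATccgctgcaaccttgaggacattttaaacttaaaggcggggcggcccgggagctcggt
Cenpf, chr1:189688037-189688336, minus strand: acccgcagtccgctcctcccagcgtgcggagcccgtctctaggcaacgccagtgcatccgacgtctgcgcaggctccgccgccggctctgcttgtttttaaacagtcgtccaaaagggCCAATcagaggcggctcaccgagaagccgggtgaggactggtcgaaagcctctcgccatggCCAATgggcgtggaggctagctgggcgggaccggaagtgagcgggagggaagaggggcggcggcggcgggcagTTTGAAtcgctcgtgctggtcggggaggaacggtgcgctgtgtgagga
Plk1, chr7:122159185-122159484, plus strand: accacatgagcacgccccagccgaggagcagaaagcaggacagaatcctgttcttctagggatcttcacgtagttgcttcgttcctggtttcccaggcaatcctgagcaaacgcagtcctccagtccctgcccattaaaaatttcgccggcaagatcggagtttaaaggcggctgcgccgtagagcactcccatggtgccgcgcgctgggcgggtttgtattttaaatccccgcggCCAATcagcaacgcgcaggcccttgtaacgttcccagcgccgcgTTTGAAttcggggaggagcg
Cenph, chr13:100775850-100776149, minus strand: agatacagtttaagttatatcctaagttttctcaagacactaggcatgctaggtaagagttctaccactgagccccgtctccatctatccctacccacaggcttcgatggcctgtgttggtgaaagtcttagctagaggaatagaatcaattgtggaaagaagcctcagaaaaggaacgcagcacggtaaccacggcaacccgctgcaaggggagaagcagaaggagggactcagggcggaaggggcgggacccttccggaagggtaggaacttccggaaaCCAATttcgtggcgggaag
Mad2l1, chr6:66534971-66535270, plus strand: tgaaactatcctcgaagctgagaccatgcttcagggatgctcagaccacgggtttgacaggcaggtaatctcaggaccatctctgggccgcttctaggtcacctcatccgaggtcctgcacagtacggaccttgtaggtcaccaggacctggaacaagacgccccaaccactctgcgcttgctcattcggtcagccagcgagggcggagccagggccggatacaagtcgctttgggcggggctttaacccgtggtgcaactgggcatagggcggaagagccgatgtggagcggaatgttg
In this window Cenpa held a CHR at base 16 after the start and 2 CCAAT boxes, Cenpf a CHR at base 2, and Plk1 a CHR at base 30. Cenpe and Cenph held a CCAAT box and no CHR, and Mad2l1 held neither element. Of the members nearest to Cenph and Mad2l1 in the step from S to G2M, Ncapg2 and Cenpw held a CHR, and Cenpk and Pttg1 did not. The 6 promoters were picked by expression, so they do not measure how the CHR goes with phase. A match is a run of letters and says nothing about binding.

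The cells matched to labels came from 1338 of 1814 wells. Of these, 6 cells of experiment 3 and 4 of experiment 5 had no zone and entered no comparison. Cells of experiments 1, 3, 4 and 5 had a median of 417105, 210350, 292109 and 155485 counts, of which 11.2%, 1.41%, 4.07% and 7.44% were mitochondrial. Cells of each experiment, time and zone were summed, because cells are not replicates, which gave sums of 11 cells or more and 2612728 to 135700254 counts in the zone and time tests, and sums of 6 to 27 cells and 1240817 to 9522593 counts in the test on G2M cells alone. The 6 B cell markers and 7 germinal center B cell markers checked were detected in every group used. Of the cells of experiments 3 and 4, 33 and 64 were marked for both zones in the deposited annotation. No label ties a well to an animal, so p-values measure the spread between these sums, which may be technical.

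Of the centromere and kinetochore genes, Cenpa and Cenpe were higher in the dark zone than in the light zone, and no other member passed the test. Across 7 pairs of sums from experiments 3 and 4, each pair from the same experiment and time, edgeR's quasi-likelihood test with Benjamini-Hochberg adjustment called 2 of the 54 members higher and 0 lower at an adjusted p under 0.05. Over all 9302 genes tested, 17 were higher (0.183%) and 13 lower (0.14%). DESeq2 called 6 members, all higher, and 5.07% of all genes in either direction. The fit put 48 of 54 members above 0, with a median log2 ratio of 0.36, but 64.8% of all genes were also above 0 and their median was 0.20. At an unadjusted p under 0.05, 12 members were higher and 0 lower, against 9.41% of all genes in either direction. Each sum mixes cells of every cell-cycle phase, so more cells in mitosis and more RNA per mitotic cell cannot be told apart in it.

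Cenpa (chr5:30666777-30674830, plus strand, GRCm38) encodes the histone H3 variant that marks centromeres. Its CPM, the gene's counts scaled to the same library total, were 66.1 at the lowest, 114.8 at the median and 225.01 at the highest of the 7 light zone sums, and 214.1, 249.9 and 390 in the 7 dark zone sums. Only the highest light zone sum, from experiment 4 at 46 h, reached into the dark zone range, and in all 7 pairs the dark zone was higher. The means were 263.9 ± 60.8 and 129.5 ± 60.9 CPM (SD, n = 7), with a log2 ratio of 1.14 ± 0.20 (SE, adjusted p = 0.0405 by edgeR). Within experiment 3 the light zone sums of Cenpa were 66.9, 66.1, 91.1 and 169.9 CPM at 12, 30, 46 and 60 h, beside 222.3, 214.1, 284.6 and 249.9 CPM in the dark zone. In experiment 4 they were 172.5, 114.8 and 225.01 CPM at 12, 30 and 46 h beside 225.6, 260.9 and 390 CPM. The gap was thus wider in experiment 3, and the ratio was 0.78 (adjusted p = 0.795) without experiment 3 and 1.39 (adjusted p = 0.325) without experiment 4, so Cenpa was called only with both.

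Cenpe (chr3:135212537-135273611, plus strand) encodes the kinesin that carries chromosomes to the spindle equator. It measured 49.9, 91.8 and 159.1 CPM (lowest, median, highest) in the light zone and 89.2, 198.04 and 322.5 CPM in the dark zone. The ranges overlapped, but in each of the 7 pairs the dark zone sum was the higher. Means were 203.1 ± 70.1 and 99.3 ± 42.3 CPM (SD, n = 7), and the log2 ratio was 1.07 ± 0.19 (SE, adjusted p = 0.0461 by edgeR). Leaving out experiment 3 or 4 ended the call for Cenpe too (adjusted p = 0.795 and 0.692), with log2 ratios of 1.07 and 1.03.

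Besides these, only Hmmr and Tpx2 were higher in the dark zone in all 7 pairs. That makes 4 of 54 members, where 3.43% of all genes tested were higher in all pairs and 1.47% lower. HMMR and TPX2 are spindle proteins, TPX2 being the activator of Aurora A. Hmmr had 26.7 to 122.2 CPM in the light zone and 34.03 to 163.4 in the dark zone (log2 ratio 0.66 ± 0.26, adjusted p = 0.425 by edgeR). Tpx2 had 31.1 to 171.3 and 55.3 to 217.1 CPM (0.79 ± 0.25, adjusted p = 0.291). At the other end, Bub3, Spc25 and Smc2 were higher in the dark zone in 2 of 7 pairs, and no member was so in fewer than 2.

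**Figure D1:**
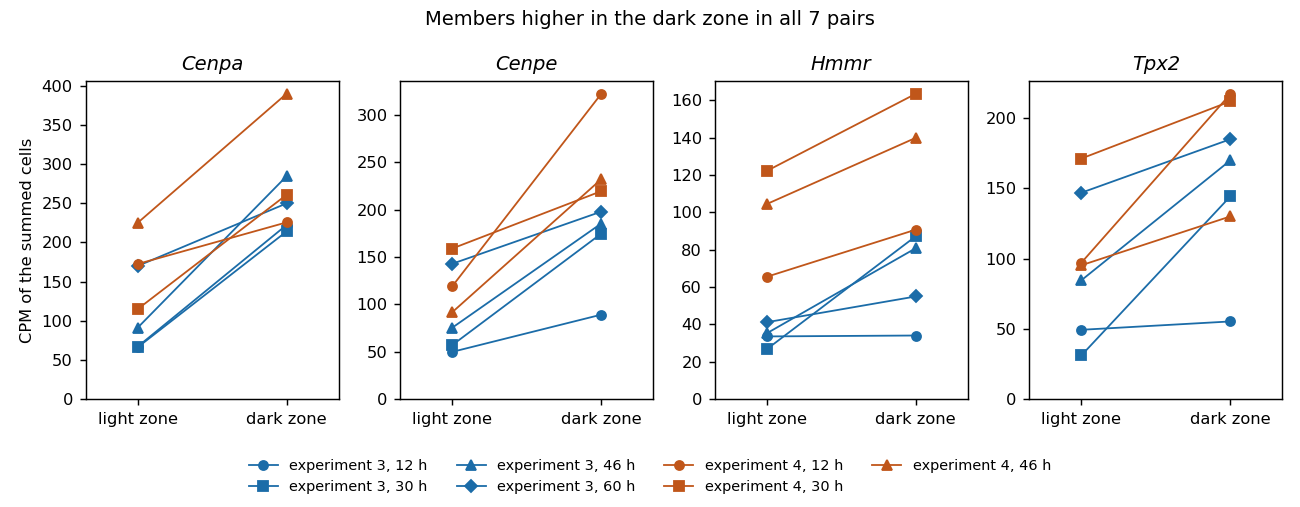
Each panel shows 1 gene, each line 1 pair of sums (same experiment and time), and the vertical axis the CPM of the summed light zone and dark zone cells. All lines go up toward the dark zone, from 0.66 for Hmmr to 1.14 for Cenpa as fitted log2 ratios, and the flattest lines of Hmmr and Tpx2 are those of experiment 3 at 12 h.

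Among the mitotic kinases, Plk1, the Polo-like kinase, had 33.9 to 184.3 CPM in the light zone and 64.6 to 232.1 in the dark zone (median 95.4 and 137.2). Its ranges overlapped, and the dark zone was higher in 5 of 7 pairs (log2 ratio 0.52 ± 0.29, adjusted p = 0.608 by edgeR). Melk, an embryonic leucine zipper kinase, had the largest ratio of the 5 kinases, 1.00 ± 0.62, from a median of 14.2 CPM in the light zone and 39.2 in the dark zone (adjusted p = 0.659). Nek2, a centrosome kinase, was higher in 6 of 7 pairs, with 27.5 to 156.95 CPM and 71.7 to 201.9 CPM (0.96 ± 0.29, adjusted p = 0.256). The kinase Pbk lay at -0.07 ± 0.46 and was the only kinase of the 5 below 0.

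The chromosomal passenger complex joins Aurora B with INCENP, survivin (Birc5) and borealin (Cdca8). Its 4 genes lay between 0.09 and 0.45, with Cdca8 at 108.1 to 441 CPM in the light zone and 201.9 to 401 in the dark zone (log2 ratio 0.41 ± 0.20, adjusted p = 0.565) and Birc5 at 70.5 to 458 and 121.4 to 386 CPM (0.45 ± 0.23, adjusted p = 0.583). For both, the light zone range enclosed the whole dark zone range. Aurkb, the kinase of the complex, was nearly level at 222.3 ± 113.2 and 218.5 ± 64.1 CPM (SD, n = 7).

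The 5 genes of the spindle assembly checkpoint lay on both sides of 0, with a median of 0.0055. Bub1b, which encodes BUBR1 of the inhibitory complex, had a median of 71.4 CPM in the light zone and 139.8 in the dark zone (log2 ratio 1.13 ± 0.45, adjusted p = 0.446), with the dark zone higher in 6 of 7 pairs. Bub3, the partner of BUB1 and BUBR1, measured 449 to 857 CPM in the light zone and 398 to 692 in the dark zone (-0.12 ± 0.13, adjusted p = 0.823). Mad2l1, which encodes MAD2, was level at 222.6 ± 75.4 and 222.4 ± 71.4 CPM (SD, n = 7). None of the 5 passed the adjusted threshold.

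The NDC80 complex, 4 subunits that bind microtubules, had a median ratio of 0.15. Nuf2 was highest at 0.39 ± 0.32 (adjusted p = 0.757), from 45.3 to 150.9 CPM in the light zone and 30.9 to 215.8 in the dark zone, and Spc24 had 35.4 to 272.2 and 59.6 to 174.2 CPM (0.24 ± 0.32, adjusted p = 0.856). Spc25, at -0.28 ± 0.28, was the lowest of all 54 members. None of its 4 genes passed the threshold. Of the 7 genes of the centromere and inner kinetochore, Cenpa was the only call, and the median of the 7 was 0.09. In the corona, Cenpf lay at 0.63 ± 0.45 (adjusted p = 0.721).

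All 9 spindle microtubule genes lay above 0, with a median of 0.66. Nusap1, which bundles microtubules at chromosomes, had 93.7 to 359 CPM in the light zone and 90.8 to 369 in the dark zone (log2 ratio 0.23 ± 0.14, adjusted p = 0.638). Ckap2, a spindle protein with the largest ratio of the 9, had a median of 15.6 CPM and 31.5 CPM (1.00 ± 0.58, adjusted p = 0.634), and its ranges overlapped. The 4 cytokinesis genes were above 0 as well, led by Racgap1, a regulator of the cleavage furrow. It measured 52.4, 110.2 and 142.2 CPM in the light zone and 97.1, 183.7 and 264.4 in the dark zone, was higher in 6 of 7 pairs, and had a ratio of 0.86 ± 0.25 (adjusted p = 0.244).

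Cdca3, a trigger of mitotic entry, had 72.3 to 285.4 CPM in the light zone and 80.96 to 380 in the dark zone (log2 ratio 0.51 ± 0.19, adjusted p = 0.402). For sister chromatid cohesion, Cdca5 (sororin) had 31.7 to 171.1 and 47.5 to 129.9 CPM (0.06 ± 0.31, adjusted p = 0.979), and Pttg1 (securin) had a median of 34.3 CPM and 55.9 CPM (0.59 ± 0.37, adjusted p = 0.664). Hmgb2, a chromatin protein that bends DNA, had 573, 935 and 1595 CPM in the light zone and 693, 1398 and 2047 in the dark zone (0.51 ± 0.14, adjusted p = 0.178). Mki67, whose protein Ki-67 coats mitotic chromosomes, had 110.2, 220.1 and 319.8 CPM and 203.1, 384 and 584.5 CPM (0.86 ± 0.22, adjusted p = 0.161), and both were higher in the dark zone in 6 of 7 pairs. Among the 6 condensin genes, all above 0, Smc4 had 135.9 to 611 CPM and 125.04 to 617 CPM (0.16 ± 0.15, adjusted p = 0.799). Ncapg2 had the largest ratio of any member, 1.25 ± 0.65 (adjusted p = 0.589), from medians of 19.5 and 41.7 CPM with overlapping ranges.

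A list of other mitosis genes was tested in the same fit, of which 96 had enough counts. Of the 96, 2 were higher in the dark zone and 0 lower: Ccnb2, a cyclin of mitotic entry (log2 ratio 1.11 ± 0.16), and Cdc20, the activator of the anaphase-promoting complex (1.19 ± 0.17), each with an adjusted p of 0.0157 by edgeR. Over all genes of this fit 0.183% were higher and 0.14% lower, and with experiment 3 or experiment 4 left out 0 genes were called. The median over the 96 was 0.26, against 0.20 for all genes.

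The zone difference was not the same at every time. In experiment 3 the median of the members' log2 ratios was -0.29 at 12 h, with 13 of 54 above 0. It was 1.46 at 30 h, with 50 above 0, then 0.51 at 46 h and 0.31 at 60 h. In experiment 4 it was 0.55 at 12 h, 0.31 at 30 h and 0.03 at 46 h. The medians over all genes ran from -0.03 to 0.29 in the same pairs. The light zone sums behind these values hold 11 to 46 cells and the dark zone sums 43 to 73.

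The share of cells that the authors called G2M was higher in the dark zone in each of the 7 pairs, a difference that was not tested. In experiment 3 it was 13.95% in the dark and 13.04% in the light zone at 12 h, 25.8% and 13.6% at 30 h, 41.1% and 27.3% at 46 h, and 36.2% and 28.6% at 60 h. In experiment 4 it was 29.1% and 15.4% at 12 h, 40.3% and 36.4% at 30 h, and 38.9% and 35.3% at 46 h. Pooled over times, which the zones hold in unequal numbers, it was 31.2% (77 cells, 95% exact binomial interval 25.4% to 37.4%) against 18% (18 cells, 11.03% to 26.9%) in experiment 3. In experiment 4 it was 34.6% (88 cells, 28.8% to 40.9%) against 25.7% (18 cells, 16.01% to 37.6%). The intervals of the zones overlapped in both experiments and at each time, which is no test of their difference, and they cover counting error only. The phase calls were made from the RNA of the same cells, and 30 of the 54 members are in the G2M gene list that the Seurat package supplies, so the shares are not independent of the members' levels.

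With only G2M cells summed, no member was called between the zones. This fit had 4 pairs, and edgeR called 0 of 7719 genes in either direction (0%), while DESeq2 called 0 members and 1.2% of all genes. Of the 54 members, 29 were above 0, with a median of 0.09 against 0.16 for all genes, and 6 had an unadjusted p under 0.05 against 3.61% of all genes. The order of the 2 medians was not steady: it was 0.11 against 0.21 without experiment 3 and 0.18 against 0.05 without experiment 4. Within G2M cells Cenpa was at 0.96 ± 0.37 and Cenpe at 1.22 ± 0.46 (SE, adjusted p = 0.999 for each by edgeR). Both genes were picked by the zone fit, whose sums hold these same cells, so the values are no second test. Cells of all phases of the 3 genotypes of experiment 5, which were not in the zone fit, gave the same sign. Cenpa had 153.9 CPM in the dark and 49.1 in the light zone of WT cells, 122.1 and 51.1 in KO cells, and 200.4 and 9.30 in TA cells, and was higher in the dark zone in 4 of 4 plates each time. For Cenpe the log2 ratios were 0.76 in WT (4 of 4 plates), 0.41 in KO (3 of 4) and 3.48 in TA (4 of 4). Being higher in the dark zone in all 4 plates was shared by 13 members in WT, 10 in KO and 27 in TA. The share of all genes with that trait was not counted. The TA light zone plates held 6, 3, 6 and 7 cells, and on the second the median over all genes was itself 3.74. These values come from 1 experiment and have no test.

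Over time, the summed level of the members in the dark zone was higher after 12 h in experiment 3, and in experiment 4 it was nearer to its 12 h value. In the dark zone of experiment 3 the 54 genes made up 4559.9 CPM at 12 h, 7567 at 30 h, 10147 at 46 h and 9098 at 60 h. In experiment 4 the values were 9531, 11301, 9940.02 and 9789 CPM, and in experiment 1 the sum labelled 30 h stood at 12335 CPM. In experiment 4 the values at 12 and 46 h include 898 and 2047 CPM of Hmgb2, and 25 of 54 members were above their 12 h value at 46 h. In the light zone, experiment 3 gave 5166, 3696, 7285 and 8224 CPM, experiment 4 gave 6721, 9436 and 9503 CPM at 12, 30 and 46 h, and experiment 1 gave 4878 CPM at 12 h. The 12 h dark zone sum of experiment 3 was thus the lowest dark zone value, at less than any dark zone sum of experiment 4.

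**Figure D2:**
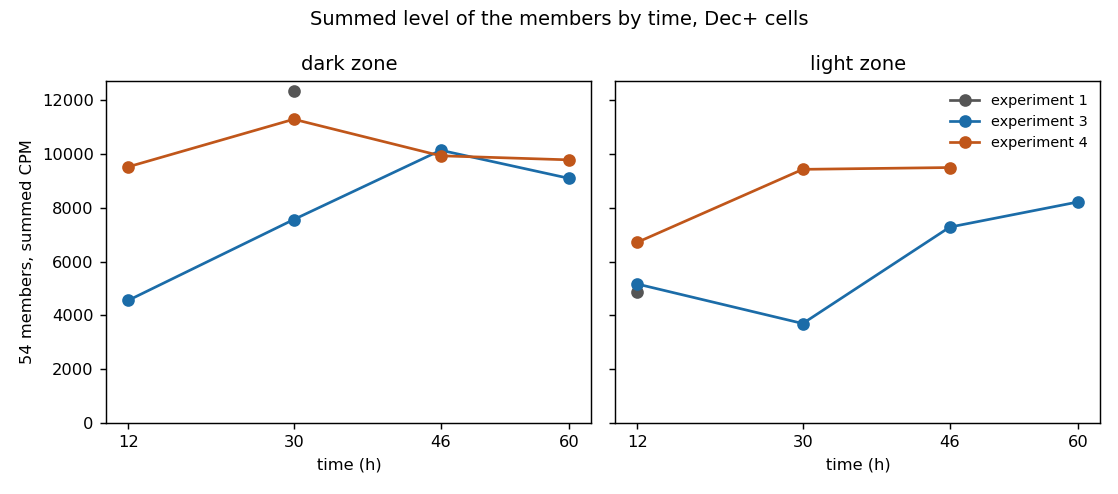
The horizontal axis gives the labelled time in hours and the vertical axis the summed CPM of the 54 genes in Dec+ cells, 1 panel per zone and 1 colour per experiment. In the dark zone experiment 3 climbs from 4559.9 to 10147 CPM by 46 h, and experiment 4 stays between 9531 and 11301 CPM.

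In a fit of 17 sums with the experiment as a block, edgeR called 0 of 54 members against 12 h at 30, 46 or 60 h in either zone. In the dark zone it called 0% of the 11662 genes tested in each direction at each time. In the light zone the called genes were 0% at 30 h, 0.0343% higher and 0.437% lower at 46 h, and 0.0171% higher and 0.103% lower at 60 h. The dark zone medians of the members were 0.73, 0.67 and 0.59 at 30, 46 and 60 h, with 53, 49 and 50 of 54 above 0, while the medians of all genes were 0.01, -0.01 and 0.03. At an unadjusted p under 0.05 there were 7, 8 and 4 members in the dark zone (all genes 2.19%, 4.3% and 1.66%) and 4, 13 and 10 in the light zone (3.45%, 11.5% and 7.03%). The 60 h arm of the light zone was 1 sum of 21 cells, so that its tests assume it to vary like the other groups. DESeq2 called 2 members in the dark zone at 46 h (1.16% of all genes in either direction), 7 in the light zone at 46 h (9.24%) and 3 at 60 h (5.18%), all higher, and 0 in the other contrasts (0.78%, 0.84% and 1.01%). The 3 of 54 at 60 h are near the share over all genes. The light zone medians were 0.17, 0.64 and 0.87, against -0.10, -0.30 and -0.27 for all genes. At 30 h the light zone median had opposite signs in the experiments, -0.66 in experiment 3 and 0.62 in experiment 4, and it was 0.43 and 0.28 at 46 h. Without experiment 4 the fitted 30 h median was -0.31.

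In the light zone the members nearest to the threshold were Cdca3, Cdca5, Birc5 and Spc24. Cdca3 had 51.7, 93.3 and 99.01 CPM at 12 h in experiments 1, 3 and 4, and 244.96 and 285.4 CPM at 46 h in experiments 3 and 4 (log2 ratio 1.66 ± 0.36, adjusted p = 0.0569 by edgeR). Both 46 h sums of Cdca3 lay above all 3 sums at 12 h. Cdca5 had 70.5, 56.9 and 31.7 CPM at 12 h and 132.05 and 142.02 CPM at 46 h, again without overlap (1.89 ± 0.48, adjusted p = 0.0978). Birc5 had 69.8, 150.9 and 122.9 CPM and then 252.2 and 458 CPM (1.52 ± 0.40, adjusted p = 0.116), and Spc24 had 52.1, 70.2 and 35.4 CPM and then 92.6 and 272.2 CPM (1.71 ± 0.48, adjusted p = 0.132). The 46 h sums hold 11 and 17 cells. These genes were named for their low p in the same values, so sums that do not overlap add no support. The share of all genes without such overlap was not counted.

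At 46 and 60 h the dark zone medians rested on experiment 3, while at 30 h the fitted median was 0.54 without it. Within experiment 3 the medians were 0.96, 1.27 and 1.16 at 30, 46 and 60 h, and within experiment 4 they were 0.30, -0.13 and 0.07. At 30 h, 38 of 54 members were above 12 h in both of these experiments and 1 was below in both. The share of all genes above 12 h in both was not counted. Taken singly, 41.6% of all genes at 20 CPM or more were above in experiment 3 and 47.5% in experiment 4. Mki67 shows the split: it went from 203.1 to 384, 444 and 441 CPM in experiment 3 and from 584.5 to 350.4, 262.7 and 363 CPM in experiment 4. Cdca3 and Hmgb2, which had the lowest unadjusted p in the dark zone at 46 h, were above 12 h in both experiments. Cdca3 went from 80.96 to 380 CPM by 46 h in experiment 3 and from 156.98 to 320.1 CPM in experiment 4 (log2 ratio 1.70 ± 0.40, adjusted p = 1 by edgeR, 0.00611 by DESeq2). Hmgb2 went from 693 to 1677 and from 898 to 2047 CPM (1.33 ± 0.32, adjusted p = 1 by edgeR, 0.0049 by DESeq2). The share of dark zone cells called G2M was lowest at 12 h in both experiments, with the shares given above and 30.8% at 60 h in experiment 4. In experiment 4 at 46 h that share was above its 12 h value, and the members' median was -0.13 against -0.25 for all genes. The part of the G2M share in the time course was not tested.

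Across the phases called by the authors, all 54 genes were higher in G2M than in G1 cells in each of the 4 experiments. The median log2 ratio of G2M to G1 was 4.51, 4.22, 4.14 and 4.53 in experiments 1, 3, 4 and 5, and that of S to G1 was 3.31, 2.66, 2.93 and 3.01. From S to G2M the step was smaller, with medians of 1.24, 1.31, 1.26 and 1.501, and 45 of 54 genes were higher in G2M than in S in every experiment. Over all genes at 20 CPM or more, the medians of these contrasts lay between -0.08 and 0.03. The phases were called from RNA, so these values are a description. The 30 members in the Seurat G2M list had a median G2M to S ratio of 1.64 and the 24 others 0.73.

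Members differed in where they peaked. Cenpf, a large corona protein, had the steepest step from S to G2M: 12.6, 21.8, 12.5 and 33.6 CPM in S cells of experiments 1, 3, 4 and 5 against 162.96, 222.5, 172.8 and 339.1 CPM in G2M cells. Plk1 followed with 32.6, 59.6, 66.02 and 34.96 CPM against 395, 439, 354 and 228.3 CPM, and in G1 cells it was at or below 4.17 CPM. Next came Hmmr, the Aurora A kinase gene Aurka and its activator Tpx2, with median log2 ratios of G2M to S of 2.71, 2.47 and 2.21. All 4 experiments had the same sign for each of these 5 genes. Cenpa had a G2M to S ratio of 1.91 and a smaller S to G1 ratio of 1.05.

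Other members were as high in S as in G2M cells. Cenph, of the inner kinetochore, had 26.1, 33.7, 62.1 and 21.5 CPM in S cells and 16.4, 19.1, 32.8 and 45.7 CPM in G2M cells, so it was higher in S in 3 of 4 experiments. Ncapg2 and Cenpk likewise had negative medians (-0.62 and -0.50), each with 1 of 4 experiments above 0. Mad2l1 had 213.8, 259.97, 325.1 and 471 CPM in S and 225.3, 311.4, 342 and 457 CPM in G2M cells. Pttg1 changed least over the whole cycle, with 8.80, 60.8, 25.7 and 23.998 CPM in G1 cells and 10.2, 73.7, 49.7 and 28.6 CPM in G2M cells. By role, the median ratio of G2M to S was 2.68 for the 2 corona genes, 1.88 for the 9 spindle genes, 1.78 for the 4 cytokinesis genes and 1.73 for the 5 kinases. It was 0.59 for the 6 condensin genes and 0.63 for the 7 genes of the centromere and inner kinetochore. All corona and spindle genes are in the Seurat G2M list, while most condensin and inner kinetochore genes are not. For these roles, a difference by role cannot be told apart from one by that list, whose genes may have entered the phase call. The 32 genes whose promoter held either CHR form had a median of 1.43 (from -0.62 to 3.45), and the 14 with neither had 1.10 (from -0.71 to 1.91).

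**Figure D3:**
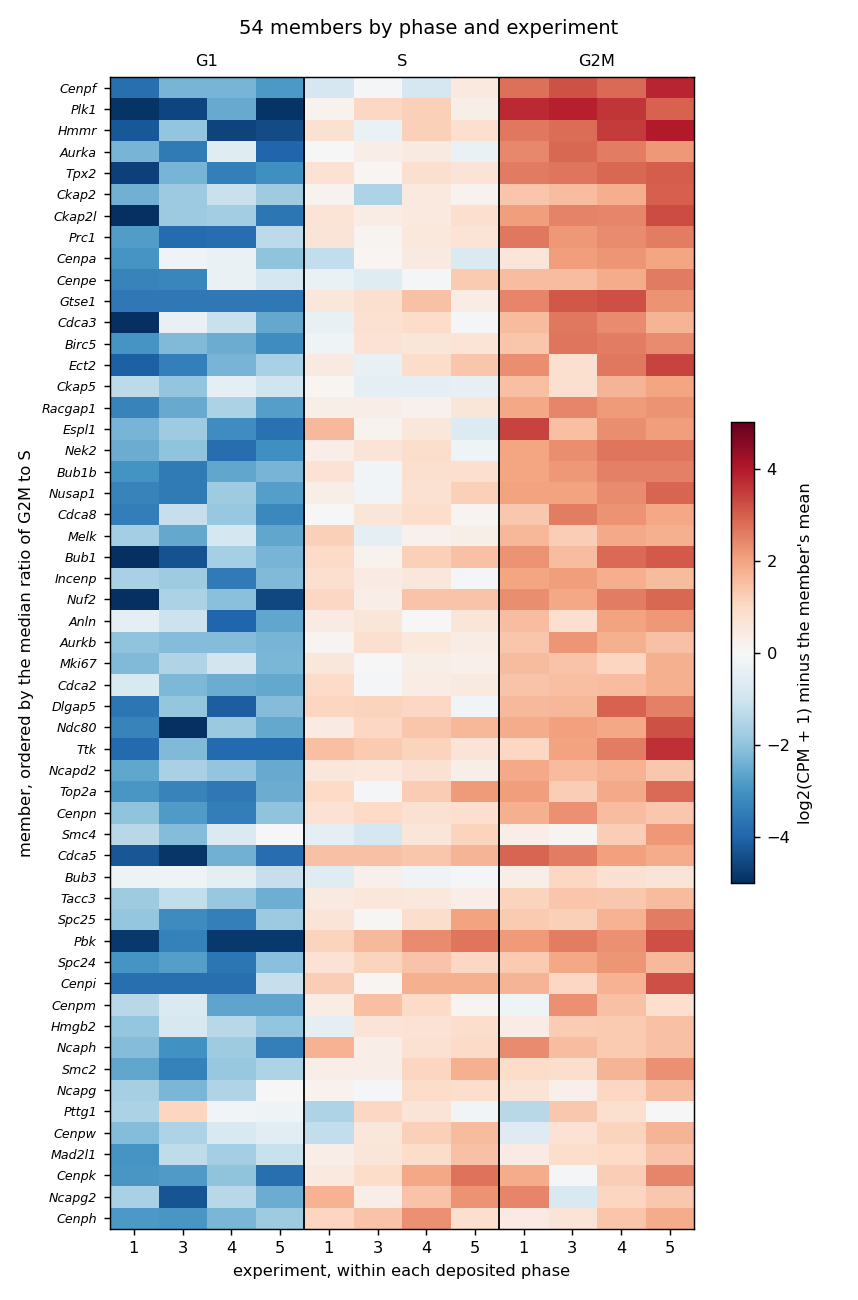
Rows are the 54 genes, ordered by the median ratio of G2M to S, and columns are experiments 1, 3, 4 and 5 within G1, S and G2M, with colour for log2(CPM + 1) minus the gene's mean. Genes at the top (Cenpf, Plk1, Hmmr) rise most from S to G2M, those at the bottom (Cenph, Ncapg2, Cenpk) are high in S and G2M, and Pttg1 is nearly even.

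A second reading of the cell cycle was recorded at the sort. FUCCI is a reporter whose fluorescence follows proteins that are made and destroyed at set stages of the cycle, and its intensity was deposited for cells of experiments 3 and 4. Each of the 54 genes had a positive rank correlation with FUCCI within each experiment and zone. The median Spearman rho across cells was 0.471 in the dark zone and 0.5259 in the light zone of experiment 3, and 0.360 and 0.472 in experiment 4. The dark zone sets held 89 G1, 81 S and 77 G2M cells and 76, 90 and 88 cells, and the light zone sets n = 99 and n = 68 cells. Over all genes the medians were 0.0936, 0.122, 0.113 and 0.156, and the 95th percentiles 0.288, 0.354, 0.255 and 0.383. These cells share libraries and plates, and FUCCI itself went with the cell's total count (rho 0.138, 0.254, 0.165 and 0.0956), so the values are a description. Top2a, the topoisomerase that untangles chromosomes, and Aurkb had the highest median rho over the 4 sets (0.674 and 0.649), with Spc24 at 0.588. Pttg1 and Ckap2 had the lowest (0.144 and 0.293).

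FUCCI and the phase call parted in the dark zone. Of 77 dark zone cells called G2M in experiment 3, 24 (31.2%, 95% exact binomial interval 21.1% to 42.7%) had a FUCCI value no higher than the 95th percentile of G1 cells (172.4). In experiment 4, where that percentile was 790.5, there were 44 of 88 (50%, 39.1% to 60.9%). In the light zone there were 0 of 17 (upper bound 19.5%) and 2 of 18 (11.1%, 1.38% to 34.7%). Between these low cells and the other G2M cells of the dark zone, 40 of 54 genes were lower in both experiments and 4 were higher in both. The medians were -0.98 and -0.57 against 0.0092 and 0.038 for all genes, whose share with the same sign in both was not counted. Pbk had 13.01 CPM in the low and 218.7 in the other cells of experiment 3, and 39.4 and 226.01 CPM in experiment 4. Aurkb had 79.3 against 666 CPM and 170.7 against 586 CPM. Cenpa and Pttg1 went the other way: Cenpa had 675 against 412 CPM and 598 against 439 CPM, and Pttg1 147.7 against 54.3 CPM and 70.99 against 41.2 CPM. Cenpe was even, at 397 against 414 CPM and 506 against 511 CPM.

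**Figure D4:**
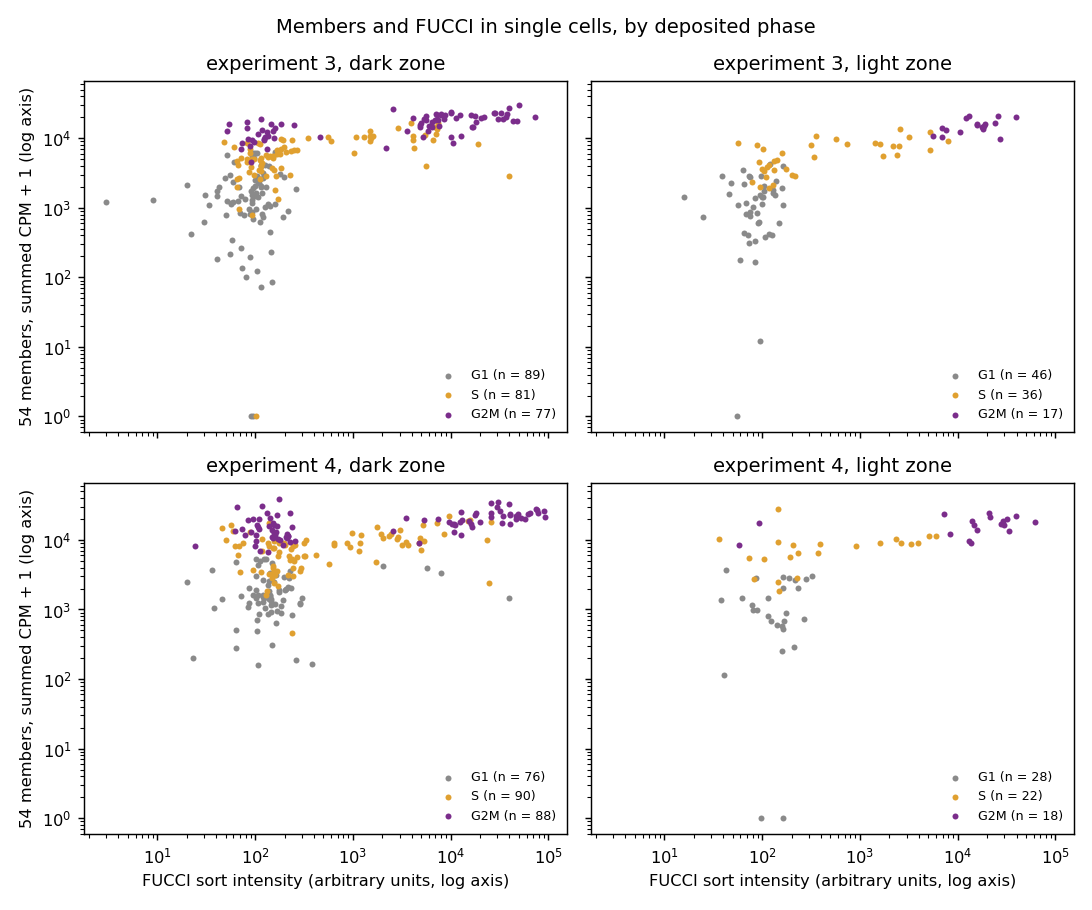
Each point is 1 cell, with FUCCI sort intensity in arbitrary units on the horizontal log axis, the summed CPM of the 54 genes plus 1 on the vertical log axis, and colour for the deposited phase. In the dark zone panels the G2M cells spread over low and high FUCCI values, with 24 of 77 and 44 of 88 cells at or below the 95th percentile of G1 cells.

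Experiment 5 compared the genotypes within each zone. The plates are named for Ccnd3, the gene of cyclin D3, which measured 477 CPM in WT, 89.3 in KO and 287.3 in TA dark zone cells, and 350.01, 78.6 and 118.9 CPM in the light zone. The 4 plates ranged from 55.99 to 122.5 CPM in KO and from 292.5 to 651 in WT dark zone cells, without overlap. Only 1 experiment held these genotypes, so the values below have no test, and KO and TA are set against the same WT cells. Ratios use CPM + 1 and genes at 20 CPM or more in either group.

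In the dark zone most mitosis genes were lower in KO than in WT cells. Of 51 members, 26 were lower by 2-fold or more, where 15.9% of all genes were, and 0 were higher by that much, where 11.6% of all genes were. The median was -1.004 against -0.16 for all genes, and 3 members were above 0. The median in single plates was -1.02, -0.04, -0.77 and -2.05, against -0.13, -0.17, -0.33 and 0 for all genes. In all 4 plates 15 members were below 0, and the share of all genes that were so was not counted. The lowest were Cenpk of the inner kinetochore (12.9 CPM in KO, 106.3 in WT, log2 ratio -2.95), the condensin subunit Ncapg2 (12.7 and 88.6, -2.71) and the spindle gene Dlgap5 (7.72 and 49.5, -2.53), each above 0 in at least 1 plate. The highest were Cenpn (41.9 and 28.997 CPM, 0.52), Ncapg (451 and 319.95 CPM, 0.50) and Ckap2 (60.9 and 55.6 CPM, 0.13).

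The cells differed in other ways too. The phase calls put 77.4% of KO dark zone cells in G1, 3.23% in S and 19.4% in G2M, against 46.3%, 24.4% and 29.3% of WT cells. Within cells called G2M (12 KO and 24 WT) the members' median was -0.07, with 26 of 53 above 0, and within G1 it was -0.44 over 19 genes. Only 2 KO cells were called S, which were not compared. The median mitochondrial share was 10.8% in KO and 6.93% in WT cells. The 12 T cell markers summed to 614 CPM in KO, with 0 of 12 at 0, and to 110.7 CPM in WT, with 4 of 12 at 0, and 6 plasma cell markers summed to 5882 and 2756 CPM. Without the wells with 3 or more T cell markers (4 of 62 KO and 1 of 82 WT) the median was -0.96. The part of mitochondrial share and plasma cell markers was not tested.

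TA cells of the dark zone lay on the other side of WT. Of 53 members, 47 were above 0, 8 were higher by 2-fold or more (8.12% of all genes) and 0 lower by that much (10.2% of all genes). The median was 0.43, against -0.03 for all genes. In single plates it was 0.74, 0.54, 1.06 and -0.27, against -0.05, 0, -0.0024 and 0.03 for all genes. In all 4 plates 14 members were above 0, and the share of all genes that were so was not counted. The highest were Pbk (234.8 CPM in TA, 69.3 in WT, log2 ratio 1.75), the condensin subunit Ncaph (220.8 and 71.1 CPM, 1.62) and Cenpw (51.3 and 16.3 CPM, 1.60). For Pbk and Ncaph all 4 plates were above 0, and for Cenpw 3 of 4. The lowest were Ckap5, a microtubule polymerase (100.7 and 146.02 CPM, -0.53), Ttk, the checkpoint kinase (71.8 and 80.02 CPM, -0.15), and Prc1, which bundles the central spindle (206.3 and 229.1 CPM, -0.15). Of TA dark zone cells 22.8% were called G1, 45.5% S and 31.7% G2M. Within S cells (46 TA, 20 WT) the median was 0.05, within G2M cells (32 and 24) it was 0.43, and within G1 cells (23 and 38) it was -0.67, with 7 of 20 genes above 0.

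In the light zone, KO cells were again lower. Of 50 members, 24 were lower by 2-fold or more (16.6% of all genes) and 3 higher (18.3%), with a median of -0.96 against -0.05 and plate medians of -0.60, -0.69, -1.37 and -0.89. Nuf2 was lowest (54.8 CPM in KO, 263.2 in WT, log2 ratio -2.24) and below 0 in all 4 plates, followed by Pbk (37.05 and 164.4 CPM, -2.12) and Cdca8 (37.9 and 151.6 CPM, -1.97). Highest were Melk (26.8 and 8.12 CPM, 1.61), Cenpf (24.1 and 9.86 CPM, 1.21) and Ckap5 (59.6 and 26.7 CPM, 1.13). Within G2M cells (7 KO, 8 WT) the median was -0.13, within S cells (9 and 18) -0.75, with 14 of 49 genes above 0, and within G1 cells (45 and 15) -0.17. Of KO cells 73.8% were called G1, against 36.6% of WT cells. The median mitochondrial share was 10.4% in KO and 6.52% in WT, the 6 plasma cell markers summed to 3726 and 1586 CPM (1 and 2 of 6 at 0), and the 12 T cell markers to 172.3 and 244.3 CPM (0 and 8 of 12 at 0). The part of the mitochondrial share and the plasma cell markers was not tested, and without wells with 3 or more T cell markers the median was -0.98.

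TA light zone cells numbered only 22, with 3 on the second plate, and gave no steady picture. Of 51 members 16 were lower by 2-fold or more (23.5% of all genes) and 8 higher (19.1%), with a median of -0.48 that became 0.19 without the second plate. Plate medians were -0.11, -6.49, -2.24 and 0. Hmmr, Ckap2 and Aurka were found in 0 of 22 TA cells, and in 9, 6 and 7 of 41 WT cells. A count of 0 in 22 allows a share of cells with counts of up to 13.6% (3 cells in 22, counting error only), so no fold is given for these 3 genes. Setting them to a floor of 3 counts over the group left the median at -0.48. Ckap5 (231.04 and 26.7 CPM, log2 ratio 3.07), Espl1, the separase (27.3 and 3.09 CPM, 2.79), and Melk (45.4 and 8.12 CPM, 2.35) were highest.

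**Figure D5:**
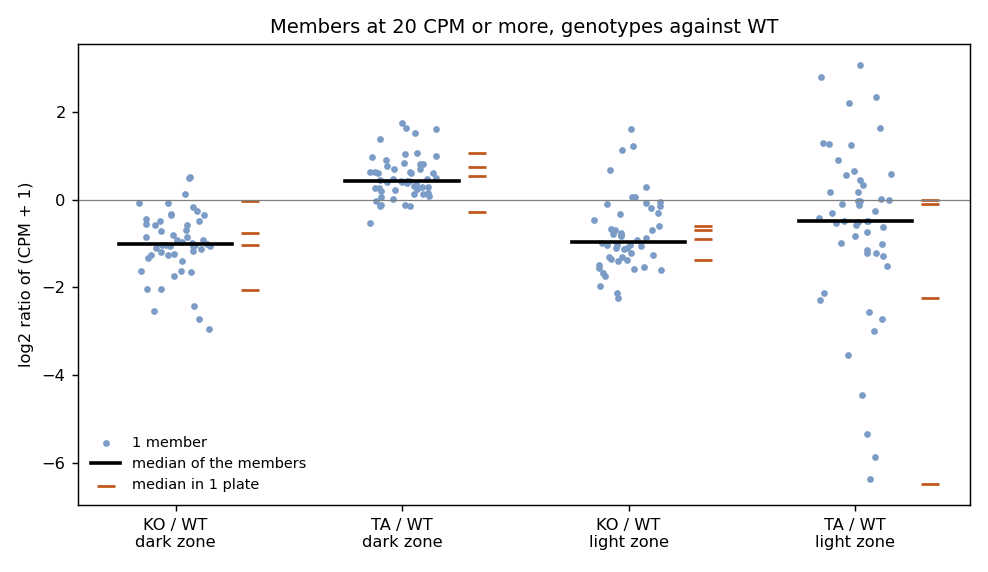
Points are genes at 20 CPM or more in either group, the vertical axis is the log2 ratio of CPM + 1 against WT, black bars are medians and orange dashes the medians of the 4 single plates. The KO points lie mostly below 0 in both zones (medians -1.004 and -0.96) and the TA dark zone points mostly above (0.43). The TA light zone points spread widely, up to 3.07. In that group Hmmr, Ckap2 and Aurka had no counts in TA cells, so the 1 CPM added sets their points, which are no measured fold.

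Between Dec+ and Dec- light zone cells of experiment 1 at 12 h, the members lay on both sides of 0. Of 51 members, 4 were higher in Dec+ cells by 2-fold or more (17.7% of all genes) and 7 lower (13.3%), and 19 were above 0. The median was -0.10, against 0.07 for all genes, and -0.87, 0.66 and -0.16 in the 3 plates. Ttk had the largest ratio: 29.8 CPM in Dec+ and 1.02 in Dec- cells (log2 ratio 3.93), above 0 in 3 of 3 plates, with counts in 25 Dec+ and 4 Dec- cells. Cenpm (37.5 and 11.1 CPM, 1.67) and Gtse1 (20.9 and 6.79 CPM, 1.49) followed, also in 3 of 3 plates. Lowest were Cenpf (16.7 and 45.7 CPM, -1.40), Cenpn (23.4 and 62.7 CPM, -1.38) and Aurka (27.7 and 68.6 CPM, -1.28), of which only Cenpn was below 0 in all plates. Of the Dec+ light zone cells 42.2% were called G1 and 13.9% G2M, against 58.8% and 10% of Dec- cells, and the median mitochondrial share was 10.4% and 12.01%. Within G2M cells (23 Dec+, 8 Dec-) the members' median was -0.49, with 13 of 52 above 0 and 0.14 for all genes. Within S cells (73 and 25) it was -0.16, and within G1 cells (70 and 47) it was 0.03 over 12 genes.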

How the data were processed

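The authors deposited expected counts per gene and cell, made with STAR 2.6 and RSEM 1.3.1 on mm10, per the submitters' processing notes, and a table of cells with Phase, S and G2M scores (score), the percent of mitochondrial counts and FUCCI sort intensity in arbitrary units, per the file headers. The notes also name Seurat 3.1.4. From these, the expected counts of cells sharing experiment, time and zone were added and rounded, and CPM were taken against the summed total. A total of 255 columns, of experiment 2, could not be matched to labelled samples and were not used. Sums under 10 cells (5 for G2M cells alone) and cells with no zone were left out. edgeR 4.0.16 in R 4.3.3 (filterByExpr, TMM, quasi-likelihood test, threshold 0.05 after Benjamini-Hochberg adjustment over all genes tested) was fitted with the pair as a block for zones and the experiment as a block for times, and DESeq2 1.42.0 as an alternative. Sums of the same experiment deviated together (correlation 0.0331 to 0.28, median 0.104, over 43 pairs of sums), and the 2 sums of a zone pair by 0.0365 to 0.17. The test was also run on simulated counts, the outcome of which is not given here. Wells were sorted as single cells, and no doublet caller was run. Genotypes and Dec status, each in 1 experiment, are given as CPM with a pseudocount of 1 CPM for genes at 20 CPM or more. Phase and FUCCI comparisons have no test. Python 3.11.15 with pandas 2.3.3, scipy 1.17.1 and matplotlib 3.10.9 did the rest, and gene positions are from the GENCODE annotation of GRCm38. The 54 members and all lists were chosen with earlier results of these data known. Genes are named by rule: those past the threshold, per role the highest by CPM and the largest by zone ratio, and for genotypes and Dec the 3 highest and 3 lowest. Other genes named (in pairs, phases, FUCCI and times) and the split of G2M cells by FUCCI were chosen after their values were seen. Alternatives left out each experiment or plate, the block, the filter, cells marked for both zones and small sums, scaled cells to the same total, changed the pseudocount to 10 CPM and, added after seeing the data, left out wells with 3 or more T cell markers.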

Additional observations from a re-analysis of the deposited data

Results flagged for a closer look

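Each group of 4 to 10 sums was checked for a sum far from the others, with the gap to the nearest sum divided by the range, and 2 of 50 groups stood out, where chance flags about 1 in 20. Cenpa in the dark zone had its highest sum, 390 CPM, in experiment 4 at 46 h (54 cells), with a gap of 0.599 of the range. Bub1b in the light zone had its highest sum, 202.5 CPM, in experiment 4 at 30 h (22 cells), with a gap of 0.610 of the range.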

How the results depend on the processing

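The 2 members called between zones became 6 with DESeq2 (Cenpa, Cenpe, Hmgb2, Mki67, Nek2 and Racgap1), while all-gene calls went from 30 to 472. They became 0 with no replicate block, so without the pairing by experiment and time, 0 with sums of at least 20 cells and 0 without experiment 3 or without experiment 4 (each as replicate), where all-gene calls were 1, 3, 0 and 0. Without replicate, the counts of the 6 time contrasts ran from 0 to 0. DESeq2 gave 2 members in the dark zone at 46 h (1.16% of all genes), 7 in the light zone at 46 h (9.24%) and 3 at 60 h (5.18%), where edgeR gave 0. The dark zone time medians at 30, 46 and 60 h were 0.54, 0.07 and 0.07 without experiment 3 and 1.28, 1.31 and 1.19 without experiment 4, and the light zone median at 30 h was 0.91 and -0.31. The Dec median of -0.10 turned to 0.13 with each cell scaled to the same total, and leaving out each plate it ran from -0.55 to 0.33. The TA light zone median of -0.48 ran from -1.93 to 0.19. The other medians kept their sign: -1.36 to -0.67 for KO in the dark zone, -1.16 to -0.85 for KO in the light zone and 0.36 to 0.72 for TA in the dark zone. In all, 76 planned and 12 added values kept a count of calls within 1.5 times, or a median with the same sign and within the spread of the plates. A count of 0 that stayed 0 says nothing of direction: the median in G2M cells went from 0.09 to -0.00029 with no replicate block. The light zone at 46 h with sums of at least 20 cells and at 60 h without experiment 3 were not run, since no sums remained. Light zone sums of 11 to 46 cells limit what the zone and time fits can show, and the genotypes have no replicate experiment.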
